A study of Mus musculus with 214 samples.

Results

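The 8 genes described here, *Cpt1a*, *Acadvl*, *Acadl*, *Acadm*, *Hadha*, *Hadhb*, *Ehhadh* and *Cyp4a14*, encode enzymes of fatty acid oxidation in the liver. They were chosen by symbol, and all 8 were found in both expression tables, which list 18647 genes for WT mice and 19540 for *Mgmt*-/- mice. Liver RNA was measured by 3′ digital gene expression, which counts reads near transcript ends, in 213 libraries of male and female C57BL6 mice. WT mice carried RaDR+/+;GPT+/+, and *Mgmt*-/- mice carried the same RaDR and GPT alleles and lacked *Mgmt*, the gene of a DNA repair enzyme that removes methyl groups from the O6 position of guanine. Pups were injected intraperitoneally with saline or with N-nitrosodimethylamine (NDMA), a methylating carcinogen activated in the liver, at 3.5 mg/kg on postnatal day 8 and 7 mg/kg on postnatal day 15. Livers were collected 1, 2 or 5 days (Day1, Day2, Day5), 10 weeks (Week10) or 10 months (Month10) after the second injection. The groups used held 21 saline and 26 NDMA WT mice at Day1, 8 and 8 at Day2, 7 and 8 at Day5, 8 and 8 at Week10, and 10 and 13 at Month10. The *Mgmt*-/- groups held 12 and 12, 7 and 8, 6 and 8, 8 and 8, and 12 and 13.

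Long-chain fatty acids enter mitochondria through the carnitine shuttle, whose controlled step is carnitine palmitoyltransferase 1A (CPT1A). Inside, chain-length-specific acyl-CoA dehydrogenases begin each round of β-oxidation, and the trifunctional protein carries out the remaining steps for long chains. Peroxisomes and the endoplasmic reticulum hold side routes, and the nuclear receptor PPARα drives many genes of all these routes in fasting and suckling. Acetyl-CoA from β-oxidation feeds ketogenesis, which supplies ketone bodies to the suckling pup. No ketogenic enzyme is among the 8 genes, so the ketogenesis genes are given separately below.

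In the reference annotation (GRCm38, GENCODE vM21) the 8 genes lie on 7 chromosomes. *Cpt1a* is at chr19:3322334-3385733 on the plus strand, *Acadvl* at chr11:70010183-70015411 on the minus strand, *Acadl* at chr1:66830839-66863277 on the minus strand and *Acadm* at chr3:153922357-153944632 on the minus strand. *Ehhadh* is at chr16:21761287-21787807 and *Cyp4a14* at chr4:115486200-115496142, both on the minus strand. *Hadha* (chr5:30118304-30155162, minus) and *Hadhb* (chr5:30155248-30184593, plus), the 2 subunits of the trifunctional protein, are divergent neighbours, and their RefSeq start sites lie 273 bases apart. The last 1000 bases of *Acadvl* overlap *Dvl2* and those of *Hadha* overlap *Garem2*, each on the opposite strand, and whether the counting used strand is not given in the sources used here. *Cyp4a14* has relatives in its gene family (*Cyp4a10*, *Cyp4a31* and *Cyp4a32*). Whether any reads were shared among them was not tested, so its values are uncertain to that extent.

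RefSeq promoter windows (GRCm38.p6, 250 bases before to 50 after the start) were found for 7 of the 8 genes. The 250 bases before the start are shown for *Acadl* (chr1:66863310-66863559, minus strand) and *Ehhadh* (chr16:21787835-21788084, minus strand). Together these 2 genes carried most of the called NDMA differences below, in opposite directions. *Cyp4a14*, which was called as well, is the gene without a window. Capitals mark GGGCGG, the core of the GC box, or its reverse complement.
Acadl: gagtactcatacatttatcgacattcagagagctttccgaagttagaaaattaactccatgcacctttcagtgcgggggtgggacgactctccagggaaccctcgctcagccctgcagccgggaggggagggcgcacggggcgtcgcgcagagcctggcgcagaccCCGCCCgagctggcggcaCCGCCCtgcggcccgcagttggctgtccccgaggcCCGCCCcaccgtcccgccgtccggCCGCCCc
Ehhadh: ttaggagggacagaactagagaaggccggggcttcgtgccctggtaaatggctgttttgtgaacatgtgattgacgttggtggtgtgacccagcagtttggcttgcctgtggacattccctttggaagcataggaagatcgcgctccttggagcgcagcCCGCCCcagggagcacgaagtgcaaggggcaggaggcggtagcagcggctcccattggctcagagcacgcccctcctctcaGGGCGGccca
The *Acadl* stretch holds 4 matches to GGGCGG and the *Ehhadh* stretch holds 2. Over the whole windows, GGGCGG on either strand was found in 5 of the 7 genes and in 35.7% of 32851 promoters. AGGTCA, a binding element of nuclear receptors, was found in 3 of the 7 (*Cpt1a*, *Acadvl* and *Acadm*) and in 16.3% of all promoters, and TATAAA in 0 of the 7 and in 13.6%. These matches are descriptions of letters in the windows.

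The targeted gene and the library quality were checked first. *Mgmt* itself ranged from 13 to 130 normalised counts in WT libraries and from 0 to 9.67 in *Mgmt*-/- libraries. Recovered read totals ran from 150038 to 4791649 in WT (median 1710016) and from 713584 to 7740710 in *Mgmt*-/- (median 2347670). Some libraries stood apart. In *Mgmt*-/- saline Day5, 2 libraries held at least 6147 counts of *Kap*, a kidney androgen-regulated gene that reached 13.9 at most in the other *Mgmt*-/- libraries, and at most 525.9 counts of *Alb* (albumin), and they were left out. In the libraries used, the summed level of 5 secreted hepatocyte proteins was at least 79369. In WT, 4 NDMA libraries held under 300000 reads, and 2 NDMA Day1 libraries had sex-linked genes against their label. Libraries came in 5 batches. The WT batches at Day2, Day5 and Week10 coincide with sex. At Day2, Day5 and Week10 the genotypes share no batch, and the difference between genotypes cannot be told apart from that between batches.

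NDMA lowered *Acadl*, which encodes the long-chain acyl-CoA dehydrogenase, in *Mgmt*-/- livers at Day1, Week10 and Month10 and in WT livers at Day1. *Ehhadh*, which encodes the peroxisomal bifunctional enzyme, rose at Day2 and Day5 in *Mgmt*-/- livers. *Cyp4a14*, which encodes a fatty acid ω-hydroxylase of the endoplasmic reticulum and is a classic PPARα target, fell at Day1, rose at Day5 and fell at Month10. Over 5 times, 8 of 40 tests of the 8 genes were called in *Mgmt*-/- mice and 1 of 40 in WT. Of all genes tested, 17.7%, 19.9%, 17.8%, 11.2% and 7.74% were called in either direction in *Mgmt*-/- mice at the 5 times. In WT mice 9.19%, 6.23%, 3.61%, 0.0249% and 0.0% were, so the larger share of calls in *Mgmt*-/- mice was common to all genes. A call needed a Benjamini-Hochberg adjusted p under 0.05 over all genes tested in limma, and a log2 difference between NDMA and saline over 0.58 in size, on the log2(value + 1) scale. In bulk liver, fewer hepatocytes and less RNA per hepatocyte cannot be told apart. All log2 values below are fitted NDMA over saline differences unless said otherwise, and levels are normalised counts, which are comparable between groups of 1 gene but not between genes or genotypes.

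**Figure D1:**
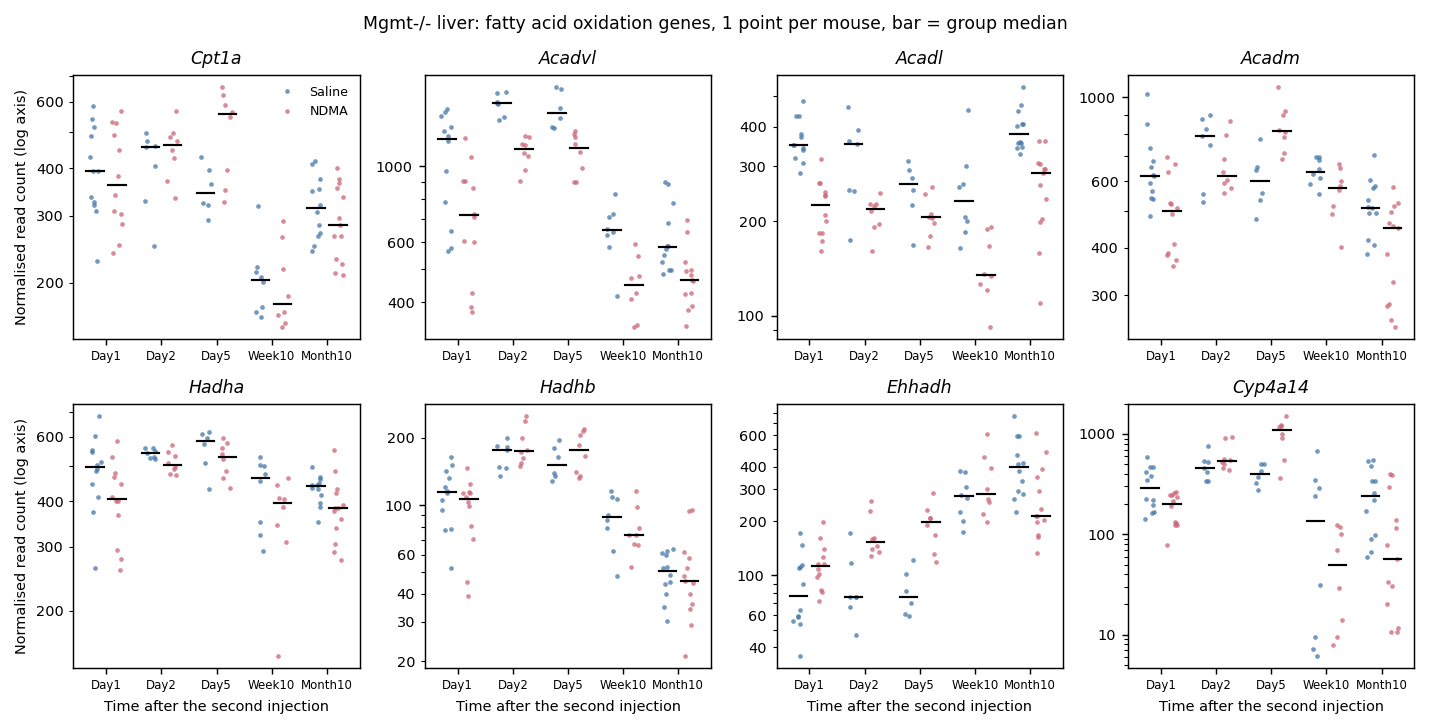
Normalised read counts (log axis) of the 8 genes in *Mgmt*-/- liver at 5 times, 1 point per mouse, saline and NDMA side by side, with bars at the group medians. The NDMA points of *Acadl* sit below the saline median at Day1, Week10 and Month10 in all 12, 8 and 13 mice, and those of *Ehhadh* at Day5 sit above it in 8 of 8.

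*Cpt1a*, the gate of mitochondrial entry, was not called at any time. At Day5 in *Mgmt*-/- livers its saline levels ran from 292 to 428 with a median of 345, and its NDMA levels from 327 to 658 with a median of 555. Of the NDMA mice, 5 of 8 lay above the highest saline mouse. The log2 difference was 0.48 (limma adjusted p = 0.021), under the fold threshold. With the 2 libraries rich in *Kap* kept, it was 0.71 (limma adjusted p = 0.0296) and called. At the other 4 times the difference in *Mgmt*-/- mice lay between -0.13 and 0.17, and in WT mice it lay between -0.10 and 0.43, with no adjusted p under 0.5 in WT.

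*Acadvl* encodes the very-long-chain acyl-CoA dehydrogenase of the inner membrane. At Day2 in *Mgmt*-/- mice the 7 saline livers ran from 1372 to 1650 with a median of 1533, and the 8 NDMA livers from 905 to 1230 with a median of 1126. The groups did not overlap, and the log2 difference of -0.46 (SE 0.09, limma adjusted p = 0.000362) was under the fold threshold. The share of all genes whose groups did not overlap is not given here, for this or any later comparison. At Day5 the groups again did not overlap, with saline from 1298 to 1713 and NDMA from 899 to 1266, and the difference was -0.43 (limma adjusted p = 0.00371). With the 2 *Kap*-rich libraries kept at Day5 it was -0.12 (limma adjusted p = 0.756). At Day1 the difference was -0.56 (limma adjusted p = 0.000343), at Week10 -0.53 (0.0481) and at Month10 -0.38 (0.0609). In WT mice 23 of 26 NDMA livers lay below the saline median at Day1, with a difference of -0.31 (limma adjusted p = 0.0018).

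*Acadl* was called most often. At Day1 in *Mgmt*-/- mice the saline livers had a lowest level of 285, a median of 350 and a highest of 484, and the NDMA livers 160, 225 and 317. All 12 NDMA livers lay below the saline median and 11 of 12 below the lowest saline liver. The log2 difference was -0.71 (SE 0.11, limma adjusted p = 4.59e-06), and it was -0.71 in each of the 2 batches taken alone. Of all 8 genes, 2 were called lower and 0 higher at Day1. Of all genes tested, 8.64% were called lower there and 17.7% in either direction.

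At Day2 and Day5 *Acadl* was lower by less. Saline levels at Day2 ran from 174 to 464 (median 353) and NDMA levels from 161 to 246 (median 220), with a difference of -0.53 (limma adjusted p = 0.0107). That value passed the test on p and stayed under the fold threshold. At Day5 the difference was -0.27 (limma adjusted p = 0.142), with 8 of 8 NDMA livers below the saline median.

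At Week10 the saline livers ran from 165 to 451 with a median of 232, and the NDMA livers from 92.4 to 192 with a median of 135. All 8 NDMA livers lay below the saline median and 5 of 8 below the lowest saline liver. *Acadl* fell by 0.77 on the log2 scale (SE 0.20, limma adjusted p = 0.0129). It was the only one of the 8 genes called at Week10, where 3.88% of genes were called lower and 11.2% in either direction. At Month10 the saline livers ran from 327 to 537 (median 381) and the NDMA livers from 110 to 361 (median 285). There 11 of 13 NDMA livers lay below the lowest saline liver, and the difference was -0.64 (SE 0.13, limma adjusted p = 0.0014). *Acadl* and *Cyp4a14* were the 2 of 8 called lower at Month10, where 2.99% of genes were and 7.74% were called in either direction. After scaling all libraries to 1 common total, which moved the median of all genes from 0.02 to 0.20 at Day1 and from 0.04 to 0.24 at Week10, *Acadl* was -0.52 and -0.56 at these times and no longer called.

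In WT mice *Acadl* at Day1 ran from 191 to 559 in saline (median 281) and from 122 to 281 in NDMA (median 186). All 26 NDMA livers lay below the saline median and 15 of 26 below the lowest saline liver. *Acadl* was the 1 call among the 8 genes at Day1, where 4.19% of genes were called lower and 9.19% in either direction. The difference was -0.66 (SE 0.10, limma adjusted p = 5.28e-07). Within batches it was -0.56 (limma adjusted p = 0.00373, under the fold threshold) in 191212Eng, -0.26 (0.9999) in 200803Eng and -0.93 (9e-05) in 210901Eng. Without the 2 NDMA libraries whose sex-linked genes went against the label it was -0.70 (limma adjusted p = 4.41e-08). At Day2 it was -0.52 (limma adjusted p = 0.0225), and from Day5 on it lay between -0.27 and -0.03.

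*Acadm*, which encodes the medium-chain dehydrogenase, did not reach a call. Its *Mgmt*-/- difference was -0.41 at Day1 (limma adjusted p = 0.00554) and 0.47 at Day5 (0.00557), both under the fold threshold. At Day5 the NDMA livers ran from 687 to 1069 with a median of 814 against 477 to 776 with a median of 600 in saline, and 6 of 8 exceeded every saline liver. At Day1 the order was the other way, with NDMA from 358 to 695 and saline from 485 to 1022. *Hadha* and *Hadhb*, the α and β subunits of the trifunctional protein, had no adjusted p under 0.05 at any time in either genotype. Their *Mgmt*-/- differences lay between -0.27 and 0.16.

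**Figure D2:**
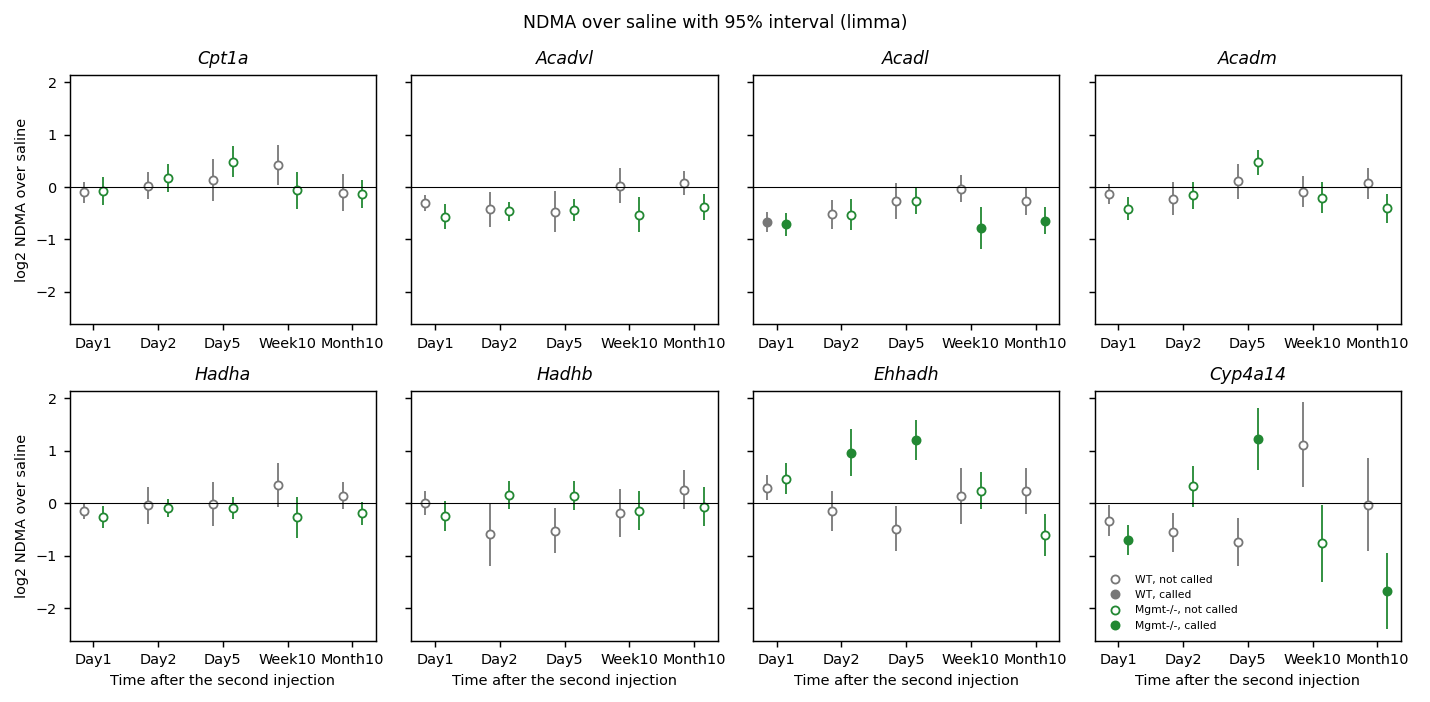
Fitted log2 NDMA over saline differences of the 8 genes at 5 times in WT and *Mgmt*-/- liver, with 95% confidence intervals and calls marked. *Ehhadh* reaches 1.21 and *Cyp4a14* 1.22 at Day5 in *Mgmt*-/- mice, against -0.48 and -0.74 in WT mice.

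*Ehhadh* was higher with NDMA in young *Mgmt*-/- mice. At Day1 the difference of 0.47 (limma adjusted p = 0.0198) was under the fold threshold. At Day2 its saline levels ran from 47.0 to 173 with a median of 76.2, and its NDMA levels from 129 to 260 with a median of 153. All 8 NDMA livers lay above the saline median and 2 of 8 above the highest saline liver. The difference was 0.97 (SE 0.23, limma adjusted p = 0.00378). It was the 1 call of the 8 genes at Day2, against 12.4% of genes called higher and 19.9% in either direction.

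At Day5 *Ehhadh* ran from 59.9 to 121 in saline (median 76.0) and from 119 to 288 in NDMA (median 199). Of the NDMA livers, 7 of 8 lay above the highest saline liver. *Ehhadh* rose by 1.21 on the log2 scale (SE 0.19, limma adjusted p = 8e-05), which is 2.31-fold. *Ehhadh* and *Cyp4a14* were the 2 of 8 called higher at Day5, against 11.1% of all genes called higher and 17.8% in either direction.

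The *Ehhadh* values moved with batch. In WT saline livers at Day1, batch 191212Eng ran from 22 to 53.8, 200803Eng from 113 to 173 (median 160) and 210901Eng from 127 to 202 (median 169), so that the first did not overlap the others. The *Mgmt*-/- saline medians at Day1 were 59.3 in 191212Eng and 129 in 200803Eng. The NDMA difference at Day1 also differed: in WT it was 0.85 (limma adjusted p = 0.00206) in 191212Eng, -0.27 (0.9999) in 200803Eng and 0.16 (0.518) in 210901Eng, and in *Mgmt*-/- it was 0.62 (0.0178) in 191212Eng and 0.17 (0.783) in 200803Eng. All *Mgmt*-/- Day2 and Day5 libraries are of 191212Eng, and no WT library of those times is. The part of batch in the Day2 and Day5 rise of *Ehhadh* was not tested.

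*Cyp4a14* changed direction over time in *Mgmt*-/- mice. At Day1 it ran from 143 to 589 in saline (median 287) and from 78.1 to 265 in NDMA (median 202), with 12 of 12 NDMA livers below the saline median. The difference was -0.70 (SE 0.14, limma adjusted p = 0.000247), and within batch 200803Eng it was -0.63 (adjusted p = 0.113) and not called. At Day5 it ran from 278 to 504 in saline (median 398) and from 367 to 1521 in NDMA (median 1088), and 7 of 8 NDMA livers lay above every saline liver. *Cyp4a14* rose by 1.22 there (SE 0.30, limma adjusted p = 0.0105), or 2.33-fold.

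At Month10 *Cyp4a14* ran from 59.7 to 554 in saline (median 241) and from 10.6 to 403 in NDMA (median 56.9). Of the NDMA livers, 7 of 13 lay below the lowest saline liver and 3 of 13 above the saline median. The difference was -1.67 (SE 0.37, limma adjusted p = 0.00475), a level 3.18-fold lower with NDMA. With treatment as the only term its limma adjusted p was 0.0928. In WT mice *Cyp4a14* was not called. At Day5 it was -0.74 (limma adjusted p = 0.0859), with 8 of 8 NDMA livers below the saline median, and edgeR and DESeq2 on the recovered reads called it lower.

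**Figure D3:**
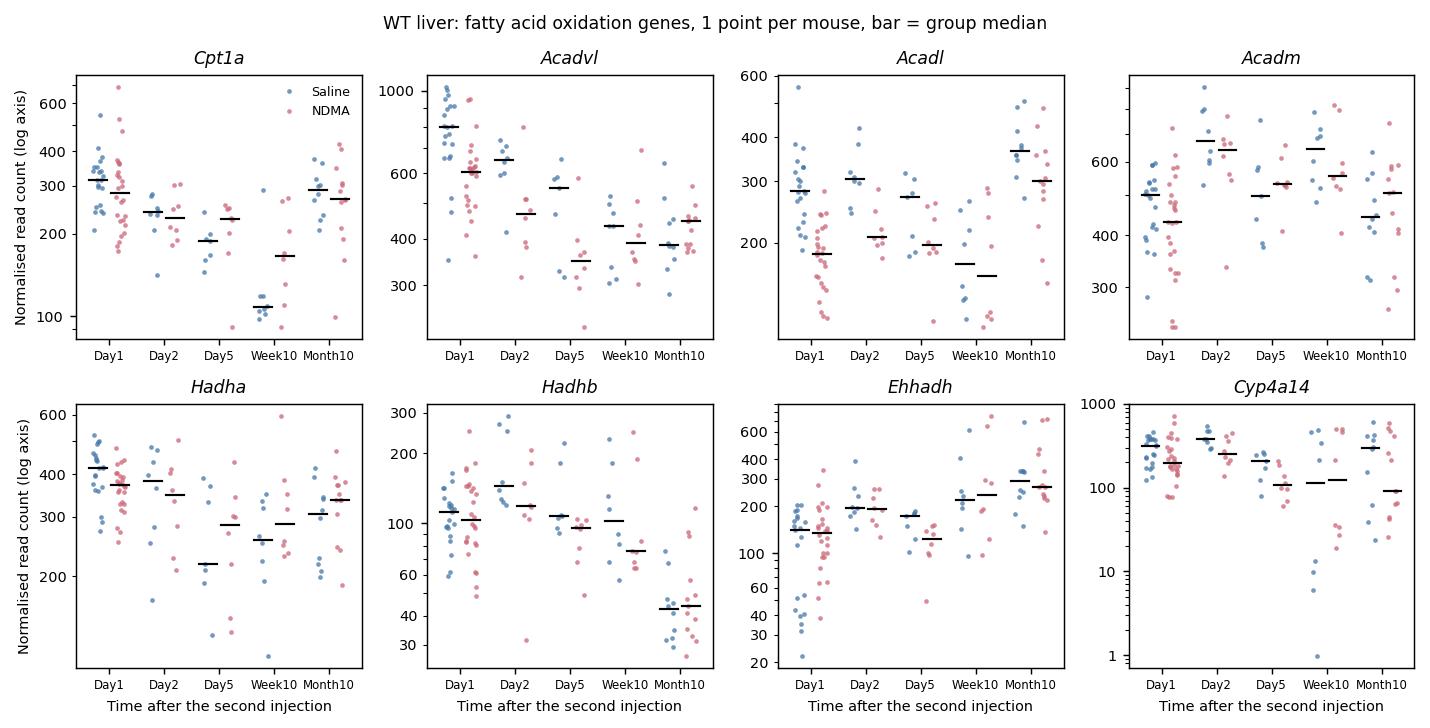
Normalised read counts (log axis) of the 8 genes in WT liver at 5 times, 1 point per mouse, saline and NDMA side by side, with bars at the group medians. *Acadl* at Day1 is the 1 called difference, and the 8 lowest *Ehhadh* saline points at Day1, from 22 to 53.8, are those of batch 191212Eng.

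WT mice gave no call among the 8 genes after Day1 by limma. At an unadjusted p under 0.05, 3 of 8 genes passed at Day2, 4 at Day5, 2 at Week10 and 0 at Month10. Of all genes tested, 1806 of 8568 passed that same rule at Day2 and 1549 of 8654 at Day5. At Week10 350 of 8048 passed it, and at Month10 757 of 9254. Over all genes, 6.23% were called in WT at Day2, 3.61% at Day5, 0.0249% at Week10 and 0.0% at Month10. By edgeR, 2 of the 40 tests were called, *Acadl* at Day1 and *Cyp4a14* at Day5, and by DESeq2 also 2.

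The genotypes' responses were compared directly with a genotype-by-treatment term in edgeR on recovered reads. At Day5 the NDMA response was larger in *Mgmt*-/- than in WT mice for *Ehhadh* by 1.60 on the log2 scale (edgeR adjusted p = 0.00021) and for *Cyp4a14* by 2.01 (0.00103). These were the 2 called of the 8 genes, against 1.29% of all genes called higher. With the *Kap*-rich libraries kept, the values were 1.82 and 2.05, and both stayed called. For *Acadl* the term was -0.01 at Day5 (0.993) and -0.73 at Week10 (0.063). *Cyp4a14* at Week10 had a term of -1.84 (0.0604). *Ehhadh* at Day2 had a term of 1.15 (0.0632). Both of these and *Acadl* at Week10 were not called by edgeR and called by DESeq2. The Day2 fit held 12 saline livers, fewer than the 8 WT and 7 *Mgmt*-/- livers of the groups, because libraries without recovered reads stayed out. None of the 8 genes was called at Day1, Day2, Week10 or Month10 by edgeR (unadjusted p under 0.05 for 2, 3, 3 and 5 of them), and DESeq2 called 5 of 40 tests in all. Over all genes 0.00963%, 3.94%, 5.79% and 1.53% were called at these times, by adjusted p. The share of all genes at an unadjusted p under 0.05 is not given here, so the unadjusted counts have no matching share beside them. At Day2, Day5 and Week10, where the genotypes share no batch, these terms also hold the difference between batches.

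Sex divided the adult levels of *Cyp4a14*. At Week10 the 4 saline males ran from 0.978 to 13.2 in WT (median 7.96) and from 6.15 to 31.1 in *Mgmt*-/- (median 8.26). The 4 saline females ran from 211 to 486 in WT (median 404) and from 240 to 672 in *Mgmt*-/- (median 319). The sexes did not overlap in either genotype at Week10. In saline *Mgmt*-/- adults of Week10 and Month10, which are of 1 batch, the female over male difference was 3.21 (SE 0.40, limma adjusted p = 5.89e-06), or 9.24-fold. *Ehhadh* was also higher in females, by 0.65 (SE 0.17, limma adjusted p = 0.0195), and at Week10 its medians were 342 in females and 213 in males. These were the 2 of 8 called higher in females, where 2.28% of all genes were.

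**Figure D4:**
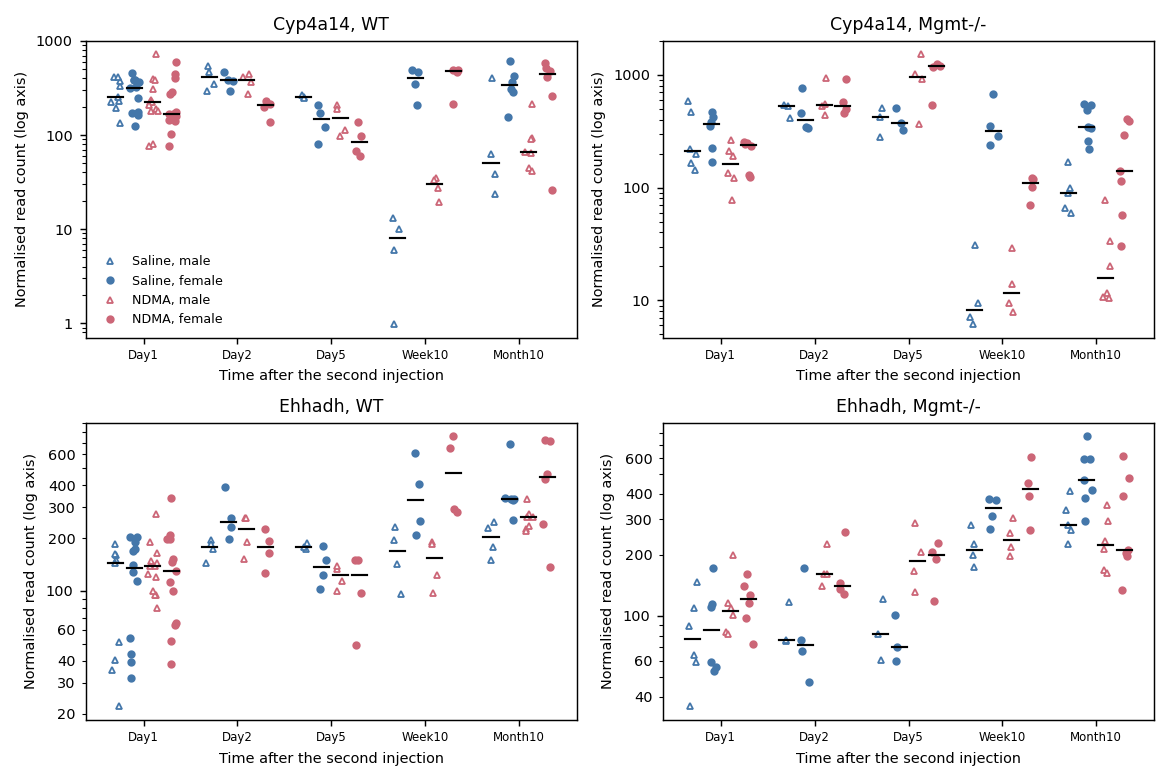
*Cyp4a14* and *Ehhadh* normalised read counts (log axis) in males and females by genotype, time and treatment, 1 point per mouse, with bars at the medians. At Week10 the *Cyp4a14* saline males lie between 0.978 and 31.1 and the saline females between 211 and 672.

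The NDMA response was then compared between the sexes. At Week10 the 4 *Mgmt*-/- NDMA females had *Cyp4a14* levels from 69.7 to 123 (median 110), all below the 4 saline females, and the 4 NDMA males ran from 7.92 to 29.2 (median 11.7), within the range of the saline males. The difference between the female and the male response was -2.10 on the log2 scale and was not called (limma adjusted p = 0.608). At Month10 the saline and NDMA medians were 343 and 140 in females and 88.9 and 15.9 in males, and the term was 0.73 (0.616). No gene of the 8 was called for a sex-by-treatment difference at any time by limma, the 1 tool run for it. At an unadjusted p under 0.05, 5 of 40 tests in WT and 2 of 40 in *Mgmt*-/- mice passed. Over all genes, 0.0% to 0.338% were called by adjusted p, a stricter rule. The share of all genes at the unadjusted p is not given here.

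Saline levels were followed from the suckling pup to the adult. The contrasts share the Day1, Day5 and Week10 livers, so that their values stand side by side and are not independent. In WT mice *Cpt1a* ran from 206 to 541 at Day1 (median 314), from 97.8 to 290 at Week10 (median 108) and from 206 to 377 at Month10 (median 289). It fell by 1.02 on the log2 scale from Day1 to Week10 (SE 0.29, limma adjusted p = 0.0134), and it was higher at Month10 than at Week10 by 1.22 (SE 0.16). Among the 8 genes it was the 1 called lower from Day1 to Week10, against 5.47% of all genes. By edgeR the Day1 to Week10 difference was -0.77 (adjusted p = 0.0983) and not called, and no batch holds WT livers of both times. WT *Ehhadh* was 0.63 higher at Week10 than at Day5 (limma adjusted p = 0.0435), the 1 called higher against 3.92% of genes, and within batches it was 0.62 (0.213) and not called, as it was not after scaling to 1 common total (0.41, 0.165). None of the 8 was called between Day1 and Day5 in WT by limma (0.431% of all genes were). At an unadjusted p under 0.05, 0 of the 8 passed and 1016 of all 9050 genes. No batch holds WT livers of both Day1 and Day5. Without the batch term *Acadvl* (-0.64), *Cpt1a* (-0.76) and *Hadha* (-0.71) were called lower, and these values also hold the difference between batches.

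*Acadl* fell by 0.62 from Day1 to Day5 in *Mgmt*-/- saline livers (SE 0.18, limma adjusted p = 0.0325), from a median of 350 to 263, where 3.02% of genes were called lower. By edgeR it was -0.53, under the fold threshold, and with the *Kap*-rich libraries kept it was -0.71 and *Cpt1a*, at -0.59, was called too. *Ehhadh* was higher at Week10 than at Day1 by 1.01 (SE 0.27, limma adjusted p = 0.005), with medians of 274 and 76.8, where 7.35% of genes were called higher. In the 1 batch that holds both times it was 1.01 as well (limma adjusted p = 0.00673), with Day1 livers from 110 to 173 and Week10 livers from 175 to 379 that did not overlap. From Day5 to Week10, 0 of the 8 genes were called by limma and 4.98% of all genes. At an unadjusted p under 0.05, 1 of the 8 passed and 1789 of all 9885 genes. No batch holds *Mgmt*-/- saline livers of both Day5 and Week10. Without the batch term *Acadvl* (-1.20), *Cpt1a* (-0.79), *Cyp4a14* (-2.59) and *Hadhb* (-0.88) were called lower and *Ehhadh* (1.73) higher. These values also hold the difference between batches.

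Between Week10 and Month10 4 of the 8 genes were called in each genotype, *Acadl*, *Cpt1a* and *Cyp4a14* higher and *Hadhb* lower. The background was high, with 39.8% of genes called higher and 21.2% lower in WT, and 31.0% and 20.0% in *Mgmt*-/-. *Acadl* was higher by 1.17 in WT (SE 0.15, limma adjusted p = 1.33e-09) and 0.69 in *Mgmt*-/- (SE 0.15), and *Cpt1a* by 1.22 and 0.63. *Cyp4a14* was higher by 1.69 in WT (SE 0.69, limma adjusted p = 0.0291; 0.113 within batches) and by 1.55 in *Mgmt*-/- (SE 0.51, 0.00953). *Hadhb* fell by 1.29 in WT (SE 0.17) and fell by 0.80 in *Mgmt*-/- (SE 0.15), and its WT levels went from 56.9 to 231 at Week10 to 29.2 to 75.9 at Month10. By edgeR the *Cyp4a14* differences were 0.33 in WT (adjusted p = 0.646) and 0.44 in *Mgmt*-/- (0.439), and those of *Acadl* (0.52) and *Cpt1a* (0.51) in *Mgmt*-/- mice were under the fold threshold, so that none of these 4 was called. After scaling to 1 common total *Hadhb* in *Mgmt*-/- mice was -0.41 and not called. The median difference of all genes was 0.36 in WT and 0.18 in *Mgmt*-/- by limma, 0.07 and 0.04 by edgeR, and 0.75 and 0.56 after that scaling. *Hadha*, the partner subunit of *Hadhb*, did not pass, at 0.17 in WT (limma adjusted p = 0.303) and 0.03 in *Mgmt*-/- (0.823).

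The rest of the pathway was read from lists of 85 other genes. In *Mgmt*-/- mice 6 were called higher and 28 lower of 77 tested at Day1, 8 and 20 of 77 at Day2, 9 and 12 of 77 at Day5, 7 and 21 of 82 at Week10, and 3 and 18 of 82 at Month10. The median log2 difference of these genes was -0.33, -0.35, -0.15, -0.40 and -0.33 at these times, beside 0.02, 0.03, 0.03, 0.04 and -0.01 over all genes tested. In WT mice 3 were called higher and 9 lower of 75 at Day1, 0 and 8 of 72 at Day2, 1 and 3 of 75 at Day5, and none of 76 at Week10 or 81 at Month10 by limma. Of all genes tested in *Mgmt*-/- mice, 8.64%, 7.5%, 6.71%, 3.88% and 2.99% were called lower at the 5 times, and 9.06%, 12.4%, 11.1%, 7.27% and 4.75% higher. In WT mice 4.19%, 2.91% and 1.39% were called lower at Day1, Day2 and Day5, and 5.01%, 3.33% and 2.22% higher. Of 15 other genes of mitochondrial β-oxidation, 8, 5, 1, 4 and 3 were called lower and 0 higher in *Mgmt*-/- mice at Day1, Day2, Day5, Week10 and Month10. Of 12 genes of fatty acid uptake and activation, 7, 7, 6, 7 and 1 were lower and 1, 2, 1, 2 and 0 higher. Of 18 genes of peroxisomal β-oxidation, 5, 3, 2, 3 and 5 were lower and 0 higher. The microsomal ω-oxidation list was mixed, with 3, 2, 2, 1 and 2 lower and 0, 2, 3, 1 and 2 higher of up to 8 tested. Of up to 4 carnitine shuttle genes tested, 1 was lower at Month10 and 0 were called before.

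**Figure D5:**
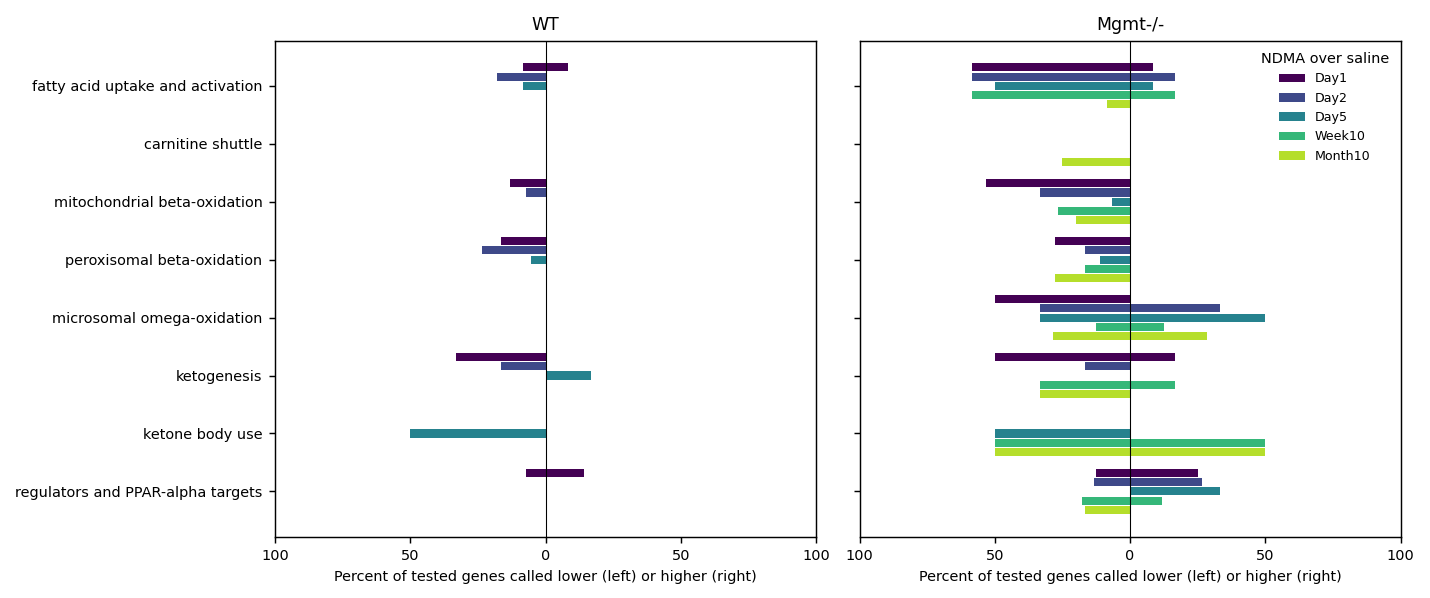
Percent of tested genes called higher (bars to the right) or lower (to the left) with NDMA in each list of the fatty acid oxidation pathway, by genotype, with 1 bar colour per time. In *Mgmt*-/- mice the bars of the mitochondrial β-oxidation list stand for 8 of 15 genes called lower at Day1 and 1 of 15 at Day5.

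Of the regulators and PPARα targets, 4, 4, 5, 2 and 0 of up to 18 tested were called higher in *Mgmt*-/- mice and 2, 2, 0, 3 and 3 lower, with medians of 0.02, -0.35, -0.05, -0.31 and -0.31. *Vnn1*, a pantetheinase gene, rose by 2.06 at Day1 (SE 0.23, limma adjusted p = 2.79e-08), from a saline median of 27.7 to 112, and by 1.72 at Day2. *Fgf21*, which encodes a hepatic hormone of fasting, rose by 1.69 at Day1, 2.58 at Day5 and 2.30 at Week10, with Day5 medians of 8.47 in saline and 53.2 in NDMA. *Acot1*, an acyl-CoA thioesterase gene, rose by 2.26 at Day2 and 2.13 at Day5 (limma adjusted p = 2.58e-05 and 0.000267). *Pdk4*, a pyruvate dehydrogenase kinase gene, rose by 2.63 at Week10 from a saline median of 0 to 7.74, low levels at which the value depends on the pseudocount.

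Among the other genes with the largest called changes in *Mgmt*-/- mice were *Acsm3* (-1.54 at Day1), *Cyp4f14* (-1.60 at Day2), *Aacs* (-2.15 at Day5), *Acot3* (-1.98 at Month10), *Cyp4a12b* (2.40 at Week10 and 1.51 at Month10) and *Cyp4a12a* (1.76 at Month10). In WT mice they included *Acot3* (-1.47) and *Vnn1* (1.25) at Day1, *Acsl1* (-1.27) and *Acad10* (-1.13) at Day2, and *Aacs* (-2.16) at Day5. *Acsl1* encodes an acyl-CoA synthetase that activates long chains.

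Of the genes of ketogenesis and ketone export, *Acat1* encodes a thiolase that makes acetoacetyl-CoA. Its levels in *Mgmt*-/- mice ran from 1129 to 2888 in saline at Day1 (median 2201) and from 502 to 1447 in NDMA (median 1012), a difference of -1.15 (SE 0.14), and it was also called at Day2 (-0.86), Week10 (-0.73) and Month10 (-0.68). *Bdh1*, which makes β-hydroxybutyrate, lay between -0.51 and -0.33 and was not called. *Slc16a1* was not called. The transporter gene *Slc16a6* rose by 1.12 at Day1 and 1.03 at Week10. In WT mice *Acat1* (-0.88) and *Bdh1* (-0.62) fell at Day1 and *Slc16a6* rose by 2.02 at Day5 (limma adjusted p = 0.0272).

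Markers of liver zones and of other cells moved in the same samples. Summed levels of 5 pericentral hepatocyte genes in *Mgmt*-/- mice went from a saline median of 6948 (3767 to 10510) to an NDMA median of 516 (324 to 2532) at Day1, from 10972 to 1038 at Day2 and from 11733 to 2897 at Day5, with 5 of 5 called lower at each. At Week10 the medians were 9415 and 4597 with 3 of 5 lower, and at Month10 8964 and 5919 with 2 of 5. In WT mice 5, 5 and 4 of 5 were lower at Day1, Day2 and Day5 and none was later by limma. Of 4 T and NK cell genes, 3, 4 and 4 rose in *Mgmt*-/- mice at Day1, Day2 and Day5, and of 5 secreted hepatocyte proteins 3, 3, 1 and 1 were lower from Day1 to Week10. Macrophage genes were called higher for 2, 4, 5, 4 and 2 of 8 at the 5 times, with 3 lower at Day1. Of the red cell precursor genes, 4 of 4, 3 of 4 and 5 of 5 fell at Day1, Day2 and Day5. In adult *Mgmt*-/- livers the summed level of 5 cholangiocyte genes went from a saline median of 86.9 (59.4 to 629) to an NDMA median of 825 (421 to 1840) at Week10 and from 87.0 (42.5 to 132) to 366 (182 to 3683) at Month10, with 1 of 2 tested called higher at each. At Week10, 4 of 5 stellate cell genes and 3 of 3 genes of dividing cells rose, and at Month10 3 of 6 and 1 of 3. Their part in the changes of the 8 genes was not tested.

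The 8 genes did not follow 1 pattern. Within groups, the 28 pairs of genes had correlations from -0.11 to 0.62 (median 0.27) over 94 *Mgmt*-/- libraries and from -0.31 to 0.58 (median 0.18) over 117 WT libraries, as a description of libraries that share batches. The highest in *Mgmt*-/- was *Acadm* with *Hadhb*. The lowest in WT was *Hadha* with *Hadhb*, a pair at 0.57 in *Mgmt*-/-. Among the genes most like the mean of the 8 z-scored levels over all libraries were *Slc25a20* (r = 0.86), *Gk* (0.83), *Etfdh* (0.82) and *Serpina3m* (0.82) of 10086 genes in *Mgmt*-/-. In WT they included *Slc16a7* (0.78), *Itih2* (0.73), *Gk* (0.73) and *Agt* (0.70) of 9090 genes. *Slc25a20* encodes the carnitine-acylcarnitine translocase and *Etfdh* the oxidoreductase that takes electrons from the acyl-CoA dehydrogenases.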

How the data were processed

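Livers of 213 mice were profiled by 3′ digital gene expression, with molecular identifiers in the primers. The authors aligned reads with STAR to GRCm38 (mm10), used ESAT to count reads at each gene, and scaled these counts with 1 DESeq2 size factor per library, separately for each genotype. The deposited values are this signal, here called normalised counts. Versions, annotation, strand setting and the handling of molecular identifiers are not given in the sources used here. Whole reads were recovered in 209 of 213 libraries (100.0% of values whole within 0.02 of the step of 1 read), and the other 4 stayed out of count tests.

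Groups, sex and batch came from the labels, replicates were numbered in accession order, and the labels tie no mouse to a litter. Per the study's methods whole litters received one treatment, so mice of a group may share a litter, and p-values measure the spread between these mice only. NDMA was compared with saline per genotype and time, and saline livers over time, with limma 3.58.1 (R 4.3.3; trend, robust) on log2(value + 1) for genes with a mean of at least 5, adding sex as a term and batch too where estimable. Genotype-by-treatment terms used edgeR 4.0.16 on recovered reads. P-values were adjusted over all genes tested, and calls needed an adjusted p under 0.05 and, outside interaction terms, a log2 difference over 0.58. Scripts were tested on simulated data. Alternatives were DESeq2 1.42.0, edgeR, other pseudocounts, filters, scalings and terms, and libraries left out. The 2 *Mgmt*-/- saline Day5 libraries with *Kap* over 1000 were left out. The 8 genes and the lists were chosen with earlier results of these data known. Other pathway genes named are up to 3 called genes per genotype and time with the largest change, and the ketogenesis genes. The genes most like the 8 are the 5 with the highest correlation. Some genes that these rules name are not reported here.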

Additional observations from a re-analysis of the deposited data

Results flagged for a closer look

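The response to NDMA at Day5 differed between the genotypes for 2 of the 8 genes, by a genotype-by-treatment term in edgeR. The term was 2.01 on the log2 scale for *Cyp4a14* and 1.60 for *Ehhadh*. The NDMA over saline differences by limma were 1.22 and 1.21 in *Mgmt*-/- mice, and -0.74 and -0.48 in WT mice, where neither was called. The genotypes' Day5 libraries are of different batches.

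Single livers stood apart from their group in 10 of 104 tests of the 8 genes by Dixon's gap criterion in groups of 4 to 10 mice, where chance gives about 1 in 20. All values are normalised counts. *Cpt1a* was far from the others in 4 groups, at 318.4 in *Mgmt*-/- saline Week10 replicate 1 (highest), 142.0 in WT saline Day2 replicate 2 (lowest), 91.93 in WT NDMA Day5 replicate 1 (lowest) and 289.8 in WT saline Week10 replicate 8 (highest). The same WT NDMA Day5 replicate 1 was lowest for *Acadl*, at 119.7. WT NDMA Day2 replicate 6 was lowest for *Acadm* (336.6) and *Hadhb* (31.55), and WT NDMA Day5 replicate 6 was lowest for *Ehhadh* (49.19), and both of these libraries hold under 300000 reads. *Hadha* was lowest in *Mgmt*-/- NDMA Week10 replicate 1 (150.5) and *Acadvl* in WT saline Day2 replicate 8 (417.2).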

How the results depend on the processing

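Of the 9 called NDMA differences of the 8 genes, 0 reversed under any alternative. In *Mgmt*-/- mice the count of 8 became 17 with no fold threshold, was 8 to 9 over leave-one-out fits, and stayed within 1.5 times in the 11 other settings. In WT mice the count of 1 became 2 by edgeR and 2 by DESeq2, 3 with no fold threshold and 3 without libraries under 300000 reads. It was 0 within batch 200803Eng, 4 within batch 200710Eng, and 1 to 3 over leave-one-out fits. A within-batch count keeps the main count at times that the batch does not hold. The 4 therefore include the main Day1 call of *Acadl*. The calls in 200710Eng itself, which holds males only, were *Acadl* at Day2 and *Acadvl* and *Cyp4a14* at Day5. Without the low-read libraries *Acadvl* (-0.61) and *Cyp4a14* (-0.77) were called lower at Day5 in WT. The WT count of 24 over the other pathway genes became 47 with no fold threshold, 39 within batch 200710Eng, and 21 to 30 over leave-one-out fits. It was 12 within 200803Eng, all of them main calls of Day2 and Day5, and 12 within 200724Eng, all of them main calls of Day1. Neither of these batches by itself gave a call, and the 39 likewise hold the main calls of Day1. The *Mgmt*-/- count of 132 lay between 97 and 174, and between 124 and 134 over leave-one-out fits. The 6 saline calls in WT became 10 after scaling to 1 common total and 13 without the batch term, and the 6 in *Mgmt*-/- became 14 without the batch term and 2 by edgeR. The 2 genotype-by-treatment calls became 5 by DESeq2, 4 without a filter on low values and 5 under a minimum mean of 20. The cause of these changes was not tested. Except for the splits given in the next paragraph, the share of all genes called under each changed rule is not given here. The changed counts therefore have no matching share beside them and are not results about the 8 genes. The counts for sex by treatment (0) and for sex (2) stayed as they were.

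The called *Mgmt*-/- differences at Day2 (*Ehhadh*), Day5 (*Ehhadh*, *Cyp4a14*) and Week10 (*Acadl*) stayed called in all 15, 14, 14 and 16 fits that left out 1 library. Scaling all libraries to 1 common total moved the split of genes called higher and lower in *Mgmt*-/- mice from 911 and 869 to 1640 and 513 at Day1, from 1170 and 710 to 1639 and 404 at Day2, from 1037 and 624 to 1402 and 399 at Day5, and from 704 and 376 to 1154 and 176 at Week10. In WT it moved from 452 and 378 to 525 and 276 at Day1 and from 285 and 249 to 386 and 181 at Day2, and by edgeR from 192 and 120 to 268 and 346 at Day5. Under that scaling *Cyp4a14* at Day1 (-0.50) lost its call, *Ehhadh* at Day1 (0.67) and *Acadm* (0.62) and *Cpt1a* (0.64) at Day5 were called higher, and the uncalled *Cpt1a* differences at Day1 and Week10 turned to 0.13 and 0.14. No paired analysis was possible because the labels give no replicate numbers shared between groups. Low depth limits the WT values of the 4 NDMA libraries under 300000 reads.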
